A study of Danio rerio with 12 samples.

Results

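The ferritin heavy chain family of the zebrafish was described in RNA of entire larvae. It comprised 7 of the 32057 genes counted in each library: fthl29, fthl27, fthl28, fthl30, fthl31, fth1a and fth1b. Members were chosen by gene name, and fth1b was found under the symbol FTH1 (ENSDARG00000007975), the name without its final letter. The family was taken up because fthl29 (ENSDARG00000113977) stood among the larger rises of exposed larvae at 7 days post fertilization (dpf), so that comparison is given below as a description, without a test. Larvae of the AB strain were kept at 28 °C from eggs collected 3 h after fertilization. There were 4 groups of 3 biological replicates: larvae in tritiated water (HTO, water with the radioactive hydrogen isotope tritium) at 0.4 mGy/h at 10 dpf, controls at 10 dpf, HTO larvae at 7 dpf, and controls at 7 dpf. The dishes with HTO stood in an incubator within a glove box and those of the controls in another incubator of that room, so exposure and incubator cannot be told apart. What counts as a biological replicate, such as a clutch or a pool of larvae, is not given in the sources used here.

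Ferritin is the hollow protein shell in which cells store iron. Its heavy chain carries the ferroxidase centre, which oxidises ferrous iron so that it can be laid down as a mineral and kept from reacting with peroxide. In vertebrates, ferritin synthesis is set largely at translation: iron regulatory proteins bind an element in the messenger RNA and block it when iron is scarce, so the RNA measured here need not follow the protein. Transcription of the heavy chain gene is also driven in mammals by the oxidative stress factor NRF2 and held back by BACH1. In the RefSeq gene table of assembly GRCz12tu, fthl27, fthl28, fthl30, fthl31 and fthl29 follow each other in this order with no other gene between them, and fth1a and fth1b lie on other chromosomes. Only reads that map to 1 place were counted, so reads shared by near-identical copies are missing from each of them and the levels of the 5 clustered genes are uncertain to that extent.

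Libraries held 19379018 to 67338921 reads on genes, and levels are given as CPM (a gene's counts per 1000000 counts of its library, with libraries scaled by TMM), which are not scaled for gene length and are therefore compared between groups and not between genes. RNA of liver, muscle, neurons, epidermis, pancreas, intestine, lens and macrophages was present in all 4 groups. The globin gene hbaa1 reached at most 0.0733 CPM and the neutrophil gene lyz at most 0.115 CPM. Other markers of erythrocytes and neutrophils were present, such as alas2 (1.15 to 6.03 CPM) and mmp13a (1.79 to 16.4 CPM). HTO replicate 1 at 10 dpf stood apart from the rest. On the second principal component it lay at -79.7, against -24.79 and -12.95 in the other HTO libraries of that age and 7.56 to 21.6 in the controls of that age. Its 5 liver markers summed to 215 CPM, against 1213 and 1826 CPM in the other HTO libraries at 10 dpf and 1528 to 1656 CPM in their controls. The pancreas marker prss1 had 748 CPM in it, against 5952 and 7239 CPM in the other HTO libraries at 10 dpf and 5381 to 7153 CPM in their controls, and the 3 intestine markers summed to 130 CPM, against 399 and 520 CPM and 362 to 427 CPM in the same groups. Fewer cells of a type and less RNA per cell cannot be told apart in entire larvae.

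At 7 dpf fthl29, a ferritin heavy polypeptide-like gene, had 16.6, 9.88 and 8.18 CPM in HTO larvae, against 4.84, 3.56 and 5.01 CPM in controls. All 3 HTO libraries lay above all 3 controls, and replicate 1 was the highest of the HTO group. In reads these were 864, 560 and 160 in HTO larvae and 330, 110 and 183 in controls, so counting error was at most 9.53% of any value and smaller than the spread of the HTO libraries (38.6% of their mean). The means were 11.6 ± 4.47 CPM in HTO larvae and 4.47 ± 0.793 CPM in controls (SD, n = 3 each), a log2 fold change of 1.38 ± 0.23 (SE). Without HTO replicate 1 the log2 fold change was 1.03. By its log2 fold change the gene stood at percentile 99.9 of the 23075 genes tested, which is the property it was picked for.

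The other 6 members were closer to their controls at 7 dpf. The log2 fold change was 0.40 ± 0.14 for fthl28, 0.23 ± 0.10 for fthl31, 0.17 ± 0.09 for fth1b, -0.03 ± 0.24 for fthl30, -0.06 ± 0.12 for fthl27 and -0.09 ± 0.09 for fth1a (SE, n = 3 each). The HTO libraries of fthl31 held 14.3, 14.7 and 15.9 CPM, against 12.8, 12.03 and 13.3 CPM in controls. Those of fth1b, a paralog of fth1a on another chromosome, held 36.7, 36.5 and 32.4 CPM in HTO larvae, against 32.0, 30.4 and 31.6 CPM in controls. In both genes the groups did not overlap, with all HTO libraries above. With fthl29 this makes 3 members of 7, beside 8.15% of all genes with the HTO libraries above, 16.7% without overlap in either direction and 0.516% past the test in this comparison. These shares are given as background only, since this comparison picked the family. fthl28 had 21.9, 19.5 and 15.2 CPM in HTO larvae, against 15.7, 13.4 and 13.9 CPM in controls, and HTO replicate 3 lay within the control range. The median log2 fold change over the members was 0.17, beside -0.01 over all genes.

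**Figure D1:**
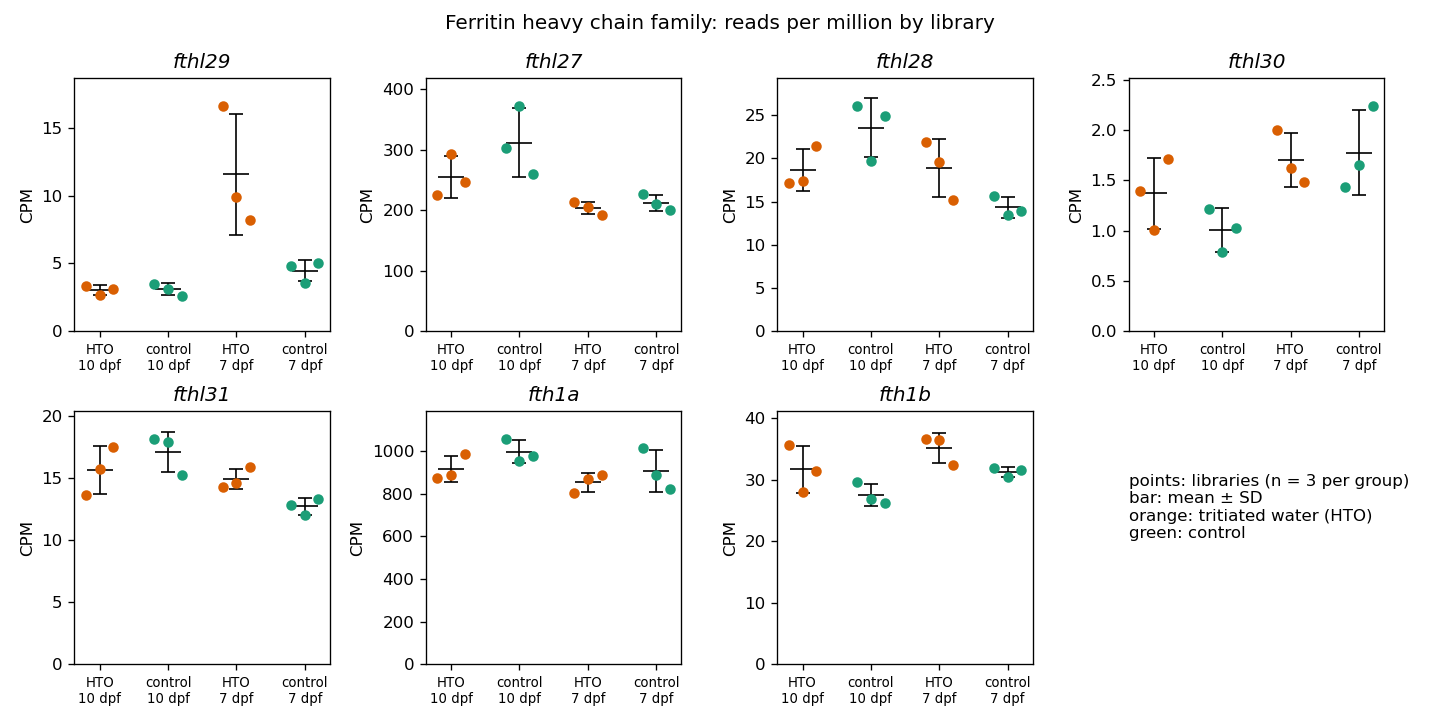
Level of each ferritin heavy chain gene in CPM (vertical axis) in the 4 groups (horizontal axis), with 1 point per library and the mean ± SD of 3 libraries. The HTO libraries at 7 dpf lie above all others in fthl29 (8.18 to 16.6 CPM), while those of fth1a overlap with their controls.

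Of 10 lists of cell type markers, 2 had summed levels without overlap between HTO and control larvae at 7 dpf. This share is near the background, since 16.7% of all genes taken singly did not overlap there. The 4 erythrocyte markers summed to 49.2 to 56.7 CPM in HTO larvae and 35.6 to 44.9 CPM in controls, with hbaa1 near 0 throughout. Most of that sum came from ENSDARG00000012881 and ENSDARG00000024560 (at most 25.4 and 29.2 CPM), while alas2 reached at most 6.03 CPM. Both were taken in under the symbol SLC4A1 for the marker slc4a1a, so the list need not stand for erythrocytes alone. The 3 lens markers summed to 210.7 to 253 CPM in HTO larvae and 185 to 209.9 CPM in controls. The other 8 lists overlapped, among them the 3 epidermis markers with 4811 to 6175 CPM in HTO larvae and 2997 to 5127 CPM in controls, and the 11 macrophage markers with 67.7 to 83.6 CPM and 81.0 to 111 CPM in the same groups. Their part in the level of fthl29 was not tested.

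Since the clustered genes are counted in the same library, the reads of fthl29 were also set against those of its 4 neighbours, which needs no scaling between libraries. Per 100 reads of fthl27, fthl28, fthl30 and fthl31 there were 6.61, 4.10 and 3.64 reads of fthl29 in HTO larvae at 7 dpf, against 1.89, 1.498 and 2.19 in controls of that age. At 10 dpf there were 1.31, 0.822 and 1.07 in HTO larvae, against 1.01, 0.764 and 0.874 in controls. The HTO and control libraries were separated at 7 dpf and overlapped at 10 dpf. The 7 dpf reads of fthl29 in this ratio are those that picked the gene. The separation at 7 dpf therefore restates that choice and was not tested. Most reads of the neighbours came from fthl27, so the ratio mainly sets fthl29 against that gene.

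**Figure D2:**
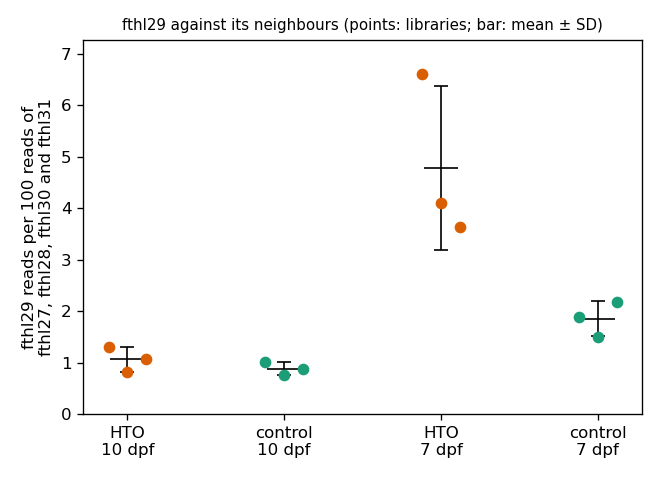
Reads of fthl29 per 100 reads of its 4 neighbouring ferritin genes (vertical axis) by group (horizontal axis), with 1 point per library and the mean ± SD of 3 libraries. The HTO libraries at 7 dpf range from 3.64 to 6.61, and the other 9 libraries do not exceed 2.19. The ratio holds the 7 dpf reads that picked fthl29 and was not tested.

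The rise that picked the family was at 7 dpf, and the libraries at 10 dpf were tested. Earlier results of these data were known when members and lists were chosen. None of the 7 members passed in HTO against control larvae (0 of 7), where 11.8% of 23075 genes did (edgeR's quasi-likelihood test, Benjamini-Hochberg adjusted p at most 0.05). The unadjusted p was at most 0.05 in 3 members, fthl27, fthl28 and fth1b, beside 28.5% of all genes, and DESeq2 and voom with sample weights also called 0 members. No member had HTO and control libraries that did not overlap, beside 33.8% of all genes.

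In fthl29 the 10 dpf values were 3.36, 2.69 and 3.09 CPM in HTO larvae, against 3.51, 3.14 and 2.63 CPM in controls. The groups overlapped fully, with a log2 fold change of -0.04 ± 0.25 (SE, adjusted p = 0.941). The 95% interval ran from -0.57 to 0.50. The difference between the effects, 10 minus 7 dpf, was -1.42 ± 0.34, and it contains the comparison that picked the gene and was not tested.

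fth1a (ENSDARG00000015551), a ferritin heavy chain gene named after the mammalian FTH1, had 873, 886 and 988 CPM in HTO larvae at 10 dpf, against 1058, 954 and 978 CPM in controls. HTO replicate 3 lay within the control range, and the log2 fold change was -0.12 ± 0.09 (SE, adjusted p = 0.402, 95% interval -0.32 to 0.07). fth1b had 35.7, 28.1 and 31.4 CPM in HTO larvae, against 29.6, 26.9 and 26.2 CPM in controls, a log2 fold change of 0.20 ± 0.09 (adjusted p = 0.170, 95% interval 0.0027 to 0.40). The lowest HTO library of fth1b lay below the highest control.

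Of the clustered genes, fthl27 (ENSDARG00000031776) had 225, 293 and 247 CPM in HTO larvae at 10 dpf, against 302, 373 and 260 CPM in controls (log2 fold change -0.29 ± 0.12, adjusted p = 0.146). fthl28 (ENSDARG00000076221) had 17.2, 17.4 and 21.5 CPM in HTO larvae, against 26.1, 19.6 and 24.9 CPM in controls (-0.33 ± 0.14, adjusted p = 0.141). In both genes most HTO libraries were below the controls but the groups overlapped, by 1 library on each side. The log2 fold change was -0.13 ± 0.10 in fthl31 (adjusted p = 0.432, 95% interval -0.35 to 0.09) and 0.42 ± 0.26 in fthl30 (adjusted p = 0.301, 95% interval -0.13 to 0.98). fthl30 (ENSDARG00000077360) held 29 to 104 reads per library, and counting error alone was 9.81 to 18.6% of its values. Liver markers were low in HTO replicate 1 of this age, and without that library 0 of the 7 members passed as well.

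**Figure D3:**
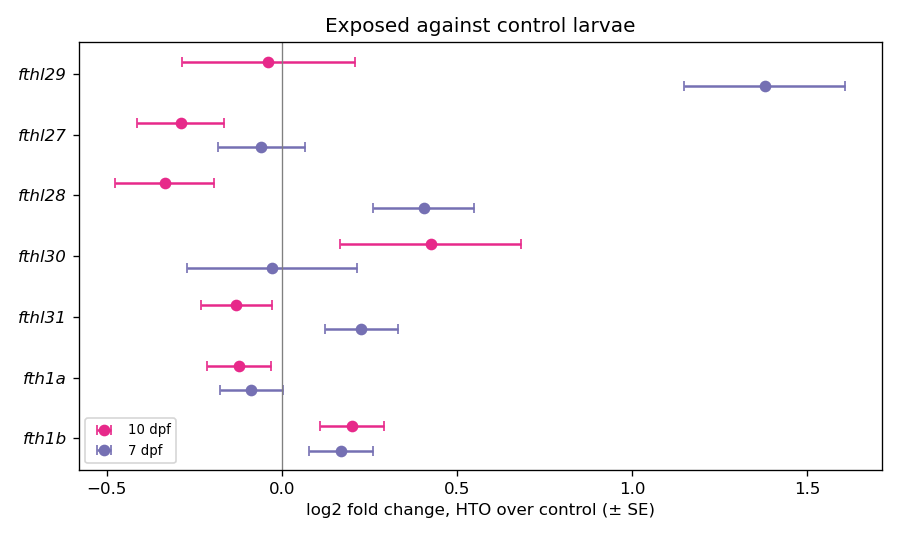
Log2 fold change of HTO over control larvae (horizontal axis) for each ferritin heavy chain gene (vertical axis) at 10 and at 7 dpf, with bars of 1 SE from the fit to 12 libraries. fthl29 stands at 1.38 at 7 dpf and at -0.04 at 10 dpf, and no member passed the test at 10 dpf.

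Between 10 and 7 dpf the clustered genes of control larvae changed in both directions. fthl29 was not tested there, since its 7 dpf controls helped to pick it. Of the 6 others, fthl27, fthl28 and fthl31 rose, fthl30 fell, and fth1a and fth1b did not pass. These are 3 rises and 1 fall of 6 genes, beside 14.3% of all genes higher, 15.0% lower and 29.3% in either direction. The libraries of the 2 ages did not overlap in any of the 6 tested members but fth1a, beside 46.1% of all genes.

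fthl27 had 302, 373 and 260 CPM in controls at 10 dpf, against 226, 210 and 200 CPM at 7 dpf. The groups did not overlap, and the log2 fold change was 0.56 ± 0.12 (SE, n = 3 each, adjusted p = 0.00461). fthl28 rose to 23.5 ± 3.43 CPM in controls at 10 dpf, against 14.3 ± 1.19 CPM at 7 dpf (SD), by 0.71 ± 0.14 on the log2 scale (SE, adjusted p = 0.00235). fthl31 (ENSDARG00000094210) rose to 17.1 ± 1.61 CPM, against 12.7 ± 0.658 CPM, by 0.43 ± 0.10 (adjusted p = 0.00679). All 3 calls held whichever library was left out.

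fthl30 fell to 1.21, 0.785 and 1.03 CPM in controls at 10 dpf, against 1.44, 1.65 and 2.25 CPM at 7 dpf, with a log2 fold change of -0.80 ± 0.25 (adjusted p = 0.0285). The groups did not overlap, but these are 62, 38 and 34 reads at 10 dpf and 98, 51 and 82 reads at 7 dpf. The call was lost without control replicate 2 or 3 at 10 dpf (adjusted p = 0.117 and 0.0604) and without control replicate 2 or 3 at 7 dpf (adjusted p = 0.0522 and 0.118). fth1a had 997 ± 54.8 CPM at 10 dpf and 906 ± 98.2 CPM at 7 dpf in controls (log2 fold change 0.14 ± 0.09, adjusted p = 0.283, 95% interval -0.06 to 0.33). fth1b had 27.6 ± 1.79 CPM at 10 dpf and 31.3 ± 0.815 CPM at 7 dpf (-0.18 ± 0.09, adjusted p = 0.150). As a description, fthl29 had 3.09 ± 0.439 CPM at 10 dpf and 4.47 ± 0.793 CPM at 7 dpf in controls, with all 3 later libraries below.

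In HTO larvae 0 of the same 6 members passed between 10 and 7 dpf, beside 23.2% of all genes, with 1 member, fthl27, at an unadjusted p of at most 0.05 beside 35.7% of all genes. DESeq2 called 0 members and voom with sample weights 2, fthl27 and fth1b. Of the 6 tested members, only fthl27 had ages that did not overlap, beside 39.6% of all genes. The ages of fthl29 did not overlap either, but its 7 dpf libraries picked it. fthl27 had 225, 293 and 247 CPM in HTO larvae at 10 dpf, against 213, 205 and 192 CPM at 7 dpf, without overlap (log2 fold change 0.33 ± 0.12, adjusted p = 0.0757). That gene did pass without HTO replicate 1 at 10 dpf (0.40, adjusted p = 0.0368), and without control replicate 2 or 3 at 10 dpf (adjusted p = 0.0428 and 0.0479). fthl28 had 18.7 ± 2.43 CPM at 10 dpf and 18.9 ± 3.38 CPM at 7 dpf in HTO larvae (-0.03 ± 0.14, adjusted p = 0.917). fthl31 had 15.7 ± 1.94 CPM at 10 dpf and 14.96 ± 0.834 CPM at 7 dpf in HTO larvae (0.07 ± 0.10, adjusted p = 0.659). In the same larvae the log2 fold change was 0.10 ± 0.09 for fth1a (adjusted p = 0.460), -0.15 ± 0.09 for fth1b (adjusted p = 0.254) and -0.35 ± 0.25 for fthl30 (adjusted p = 0.345). For fthl29 the values were 3.05 ± 0.337 CPM at 10 dpf and 11.6 ± 4.47 CPM at 7 dpf in HTO larvae, a log2 fold change of -1.95 ± 0.24 given without a test.

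A call in controls that is missing in HTO larvae does not show that the age changes differ. The age change in HTO larvae minus that in controls was -0.74 ± 0.20 on the log2 scale for fthl28, -0.36 ± 0.15 for fthl31, -0.23 ± 0.18 for fthl27, -0.04 ± 0.13 for fth1a, 0.03 ± 0.13 for fth1b and 0.45 ± 0.35 for fthl30 (SE). These differences share the 7 dpf libraries that picked the family and were not tested. Cell type markers also differed by age, mostly in controls. There 9 of the 10 lists, all but neutrophils, did not overlap between 10 and 7 dpf, beside 46.1% of all genes taken singly. The sums of pancreas and macrophage markers were higher at 10 dpf, and those of liver, erythrocytes, muscle, epidermis, intestine, lens and neurons were lower. The pancreas list was the gene prss1 alone, which did not pass (edgeR, adjusted p = 0.508). No liver or intestine marker passed (smallest adjusted p = 0.0717 for tfa and 0.151 for apoa4a). In each other lower list some markers passed and some did not, among them SNAP25 (ENSDARG00000020609, 0.0036, adjusted p = 0.978). Liver markers summed to 1528 to 1656 CPM in controls at 10 dpf and 2627 to 3299 CPM at 7 dpf, and erythrocyte markers to 21.8 to 26.1 CPM and 35.6 to 44.9 CPM in the same groups. Muscle markers summed to 8299 to 9625 CPM and 11928 to 14046 CPM, and macrophage markers to 140 to 163 CPM and 81.0 to 111 CPM, in controls of these ages. Of the macrophage markers tested there, cd68 and the MFAP4 copies ENSDARG00000038683 and ENSDARG00000090557 rose. The others did not pass, among them csf1ra (-0.10, edgeR, adjusted p = 0.531). In HTO larvae 4 of the 10 lists did not overlap, a share near the 39.6% of all genes taken singly. All 4 (liver, erythrocytes, muscle and epidermis) were lower at 10 dpf. There liver markers summed to 215 to 1826 CPM at 10 dpf and 2724 to 3362 CPM at 7 dpf, and erythrocyte markers to 13.1 to 25.3 CPM and 49.2 to 56.7 CPM. The liver markers other than tfa did not pass in HTO larvae. Their part in the age changes of the family was not tested.

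**Figure D4:**
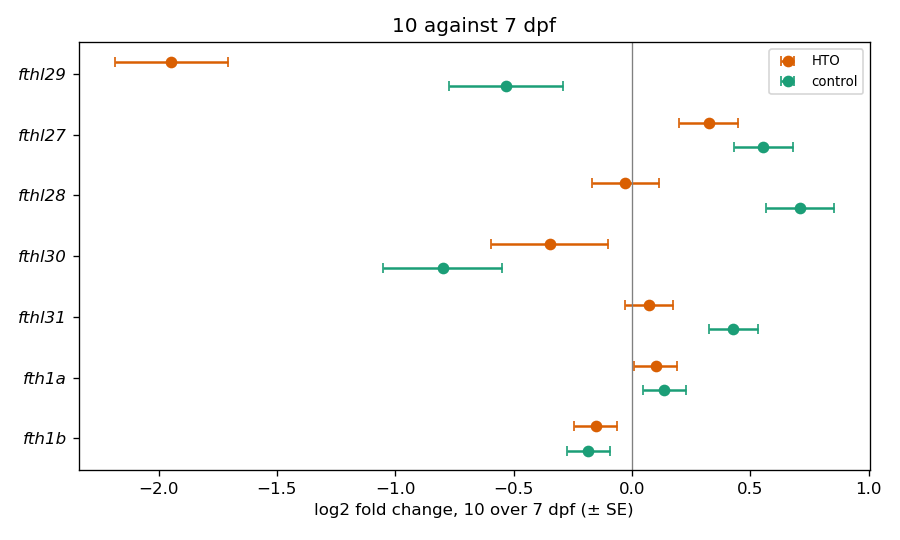
Log2 fold change of 10 over 7 dpf (horizontal axis) for each ferritin heavy chain gene (vertical axis) in HTO and in control larvae, with bars of 1 SE from the fit to 12 libraries. In controls fthl27, fthl28 and fthl31 rose by 0.43 to 0.71 and fthl30 fell by 0.80, while in HTO larvae no tested member passed.

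Ordered by mean level, fthl29 was highest in HTO larvae at 7 dpf, then in controls at 7 dpf, controls at 10 dpf and HTO larvae at 10 dpf, and the last pair overlapped. fthl27 and fth1a were highest in controls at 10 dpf, with 312 ± 57.0 and 997 ± 54.8 CPM, and lowest in HTO larvae at 7 dpf, with 204 ± 10.6 and 853 ± 44.9 CPM. For fthl27 the 7 dpf groups overlapped with each other, as did the 10 dpf groups. For fth1a each group overlapped with the next in the order. The 7 members together summed to 1169 to 1310 CPM in HTO larvae at 10 dpf, 1308 to 1439 CPM in controls at 10 dpf, 1108 to 1155 CPM in HTO larvae at 7 dpf and 1086 to 1306 CPM in controls at 7 dpf. In reads, not scaled for length, fth1a made up 68.4 to 77.6% of that sum, so the sum mainly follows fth1a and hardly holds fthl29.

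Over the 12 libraries Pearson's r of log2 CPM between pairs of members ranged from -0.84 for fthl27 with fthl30 to 0.75 for fthl29 with fth1b. It was -0.59 between fthl29 and fthl27, which lies at the other end of the cluster, and 0.15 after the group means were taken out. Between fthl29 and fthl31, the member next to it, r was -0.23, and -0.0069 without the group means. With fthl28 and fthl30 r was -0.06 and 0.59, and 0.56 and 0.50 without the group means. Among 14198 other genes with a symbol and a mean of at least 5 CPM, the pattern of fthl29 was most like those of fbxo2 (r = 0.94), TRPV6, an epithelial calcium channel (0.93), and si:ch211-236l14.4 (0.92). After removing group means r was 0.89, 0.58 and 0.72 for these 3 genes. This likeness uses the 7 dpf libraries that picked fthl29. High levels of these 3 genes in HTO larvae at 7 dpf therefore restate that choice. TRPV6 had 11.8 ± 1.37 CPM in HTO larvae at 10 dpf, 8.43 ± 1.13 CPM in controls at 10 dpf, 44.9 ± 9.78 CPM in HTO larvae at 7 dpf and 19.6 ± 2.14 CPM in controls at 7 dpf. The rise at 7 dpf was smaller in the others. fbxo2 had 58.9 ± 8.85 CPM in HTO larvae and 48.7 ± 1.63 CPM in controls of that age, with overlap. si:ch211-236l14.4 had 14.0 ± 1.05 CPM and 11.8 ± 0.852 CPM in the same groups. The genes most like fth1a were c7b (0.94), which encodes a complement component, itgb2 (0.94), the beta chain of leukocyte integrins, and NCBP3 (0.94). For fthl27 they were MND1 (0.96), DENR (0.95) and DDX20 (0.94), and for fthl28 NCOR1 (0.92), si:dkey-262k9.2 (0.89) and ARHGEF16 (0.89). For fthl31 they were mutyh (0.93), ASPG (0.89) and EIF4EBP3 (0.89), and for fth1b cldn1 (0.92), fndc7b (0.92) and NR2E1 (0.92), while fthl30 lay under 5 CPM and was not compared. These values are descriptions over 12 libraries that fall into 4 groups and share their scaling, were picked as the highest of many, and carry no test.

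Other genes of iron handling were read from 6 lists with 54 genes, all of which could be tested. At 10 dpf 6 of the 54 (11.1%) passed, all lower in HTO larvae, beside 11.8% of all genes in either direction and 7.02% lower, a share near the background. The median log2 fold change was -0.10, beside -0.0040 over all genes. No gene passed among 11 of iron uptake, 5 of iron sensing and ferritin turnover, and 9 of mitochondrial iron.

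Of the 6 genes in the list of Nrf2 and Bach1 regulators, 3 fell, beside 7.02% of all genes lower and 11.8% in either direction. The 3 others, second copies of these genes, did not pass (edgeR). The log2 fold change was -0.26 for bach1a (adjusted p = 0.0740), -0.20 for nfe2l2b (adjusted p = 0.533) and -0.02 for KEAP1 (ENSDARG00000074634, adjusted p = 0.926). BACH1 (ENSDARG00000002196), a heme-sensing repressor, had 31.9, 37.3 and 38.6 CPM in HTO larvae at 10 dpf, against 61.1, 69.9 and 66.3 CPM in controls. All HTO libraries lay below all controls, with a log2 fold change of -0.87 ± 0.12 (SE, adjusted p = 0.000853), and the call held whichever library was left out. NFE2L2, a gene of NRF2 beside nfe2l2b, had 202 ± 25.7 CPM in HTO larvae and 268 ± 22.7 CPM in controls (SD), a log2 fold change of -0.41 ± 0.10 (adjusted p = 0.0213). keap1a, which encodes a repressor of NRF2, had 23.9 ± 3.21 CPM in HTO larvae and 31.8 ± 2.02 CPM in controls (-0.41 ± 0.10, adjusted p = 0.0181). The call of NFE2L2 was lost without HTO replicates 1 or 2 or control replicate 1 at 10 dpf (adjusted p = 0.0774, 0.0503 and 0.109), and that of keap1a without HTO replicate 1 or control replicate 2 (adjusted p = 0.0576 and 0.0692). With the compared groups alone the call of NFE2L2 was lost as well (adjusted p = 0.0539). At 7 dpf, given without a test, the log2 fold change was -0.38 for BACH1 and -0.27 for NFE2L2. Both had all HTO libraries below all controls, beside 16.7% of all genes without overlap in either direction. For keap1a it was -0.04, with overlap. Of the second copies, bach1a stood at -0.21 at 7 dpf, with all HTO libraries below all controls. For nfe2l2b and KEAP1 (ENSDARG00000074634) the value was -0.25 and -0.08, both with overlap.

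The other falls were those of hephl1a, a relative of the copper ferroxidases, and, chosen after their values were seen, of BLVRA, the biliverdin reductase, and FLVCR2 (ENSDARG00000031506), of a family of transporters. hephl1a had 7.42, 7.78 and 8.13 CPM in HTO larvae at 10 dpf, against 16.8, 12.1 and 13.8 CPM in controls (log2 fold change -0.87 ± 0.17, adjusted p = 0.00810). BLVRA changed by -0.57 (adjusted p = 0.0258) and FLVCR2 by -0.42 (adjusted p = 0.0483). A second gene of that symbol, ENSDARG00000038957, had a log2 fold change of 0.26 and did not pass (edgeR, adjusted p = 0.458). The call of FLVCR2 (ENSDARG00000031506) was lost whichever library was left out and under 6 of the 9 other settings: RLE and upper quartile scaling (adjusted p = 0.0542 and 0.0621), no filter (0.0708), the replicate block (0.0803), DESeq2 (0.0714) and the compared groups alone (0.121). That of BLVRA was lost with the compared groups alone (adjusted p = 0.0525) and without HTO replicate 1 or control replicate 1 or 2 at 10 dpf (adjusted p = 0.0891, 0.0766 and 0.0894). At 7 dpf, given without a test, the log2 fold change of hephl1a was -0.51, with all HTO libraries below all controls. It was 0.08 for BLVRA and -0.06 for FLVCR2 (ENSDARG00000031506), both with overlap. The second gene of that symbol, ENSDARG00000038957, stood at -0.39, with all HTO libraries below all controls. Of all genes, 16.7% did not overlap at 7 dpf in either direction.

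Beside these falls, 5 of the 10 lists of cell type markers did not overlap between HTO and control larvae at 10 dpf. Of all genes taken singly, 33.8% did not overlap there. The 11 macrophage markers summed to 72.3 to 101 CPM in HTO larvae at 10 dpf and 140 to 163 CPM in controls, and 2 copies of MFAP4 among them were listed at 0 in some libraries. Of those tested, cd68 (log2 fold change -1.22, edgeR, adjusted p = 0.000501) and the MFAP4 copy ENSDARG00000038683 (-2.60, adjusted p = 0.00106) passed. The others did not, among them csf1ra (-0.06, adjusted p = 0.761), so the lower sum does not hold for each marker. The 3 epidermis markers summed to 3246 to 3599 CPM in HTO larvae and 1892 to 1990 CPM in controls. Of these, krt4 and krt5 passed, and cldni did not (-0.18, edgeR, adjusted p = 0.394). The 6 muscle markers summed to 10142 to 11763 CPM in HTO larvae and 8299 to 9625 CPM in controls. None of the muscle markers passed, with the smallest adjusted p at 0.0557 (TNNT3, ENSDARG00000068457). The 5 neuron markers summed to 885 to 1019 CPM in HTO larvae and 747 to 822 CPM in controls. Among them ELAVL3 (adjusted p = 0.274) and the SNAP25 copy ENSDARG00000020609 (adjusted p = 0.0973) did not pass, and the others did (edgeR). The 3 lens markers, which all passed, summed to 176 to 220.2 CPM in HTO larvae and 121 to 147 CPM in controls. The part of these cell types in the called iron genes was not tested.

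Among genes that did not pass at 10 dpf, the log2 fold change was 0.05 for the iron exporter SLC40A1, ferroportin (adjusted p = 0.695), and -0.72 for hamp, which encodes the iron hormone hepcidin (adjusted p = 0.492). It was 0.14 and 0.09 for the transferrin receptors tfr1a and tfr1b (adjusted p = 0.740 and 0.780). It was -0.02 for IREB2 (adjusted p = 0.911) and -0.37 for ACO1 (adjusted p = 0.0879), which encode the iron regulatory proteins. It was -0.18 for ncoa4, the receptor that takes ferritin to the lysosome (adjusted p = 0.113), and -0.37 for HMOX1, a heme oxygenase (adjusted p = 0.215). tfa, the transferrin gene of liver, had 50.6, 255 and 362 CPM in HTO larvae, against 335, 291 and 295 CPM in controls. Its low library is HTO replicate 1, whose liver markers were low, and its log2 fold change was -0.46 with that library and 0.01 without it (adjusted p = 0.618 and 0.981). At 7 dpf, given without a test, tfr1a stood at 0.34 and SLC40A1 at 0.12, with all HTO libraries above all controls. This was so for 8.15% of all genes. The other genes named in this paragraph overlapped at 7 dpf.

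**Figure D5:**
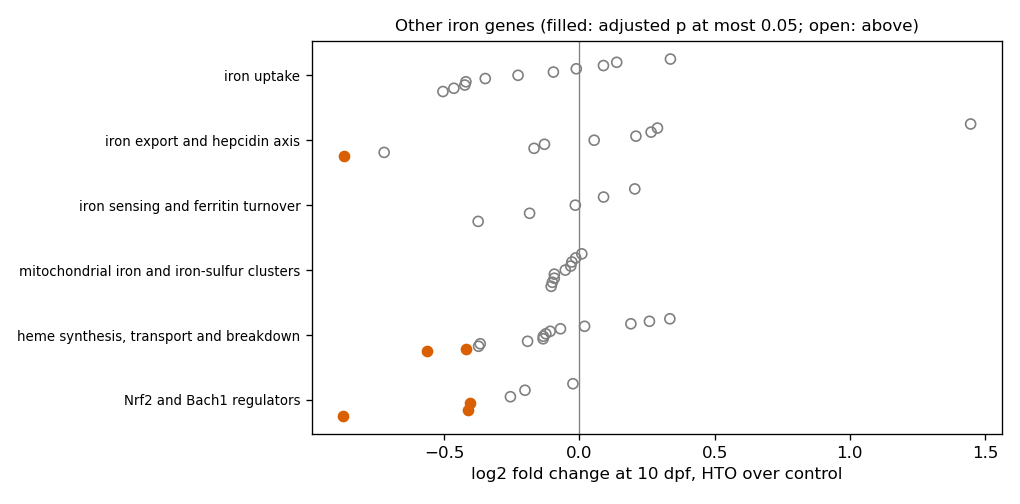
Log2 fold change of HTO over control larvae at 10 dpf (horizontal axis) for 54 genes of iron handling in 6 lists (vertical axis), with 1 point per gene, filled where the adjusted p was at most 0.05. The 6 filled points lie below 0, and 3 of them are in the list of Nrf2 and Bach1 regulators. Of all genes, 11.8% passed in either direction and 7.02% were lower.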

How the data were processed

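Raw read counts per gene of 12 libraries were used as deposited. Per the submitters' processing notes they came from STAR on GRCz11, with no version or annotation release given in these sources. Per the labels' protocols, libraries were stranded and paired-end. Counts were taken from the column for the strand opposite to that of the first read, and the other strand held 2.24 to 2.55% of reads on genes. Lines that name no gene were left out (reads mapped to several places made up 14.4 to 14.8% of all reads). Symbols came from a table of gene IDs and named 28988 of 32057 genes.

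Genes kept by filterByExpr (minimum count 10, minimum total 15), 23075 in all, were given TMM scaling. A robust quasi-likelihood model of edgeR 4.0.16 (R 4.3.3) had 1 mean per group, 8 residual degrees of freedom, two-sided tests and Benjamini-Hochberg adjustment over all genes with a threshold of 0.05. SE is the size of the log2 fold change divided by the root of F, and log2 CPM used a prior count of 2. Counting errors cover the sampling of reads only. The tests set differences between groups against the spread between libraries within groups, which may be technical. In simulated data, with 99 genes changed 2-fold and 101 changed 1.5-fold, the model recovered 82.8% and 44.6% between HTO and control larvae at 10 dpf. Between ages it recovered 78.7% and 46.8% in HTO larvae, and 88.7% and 46.8% in controls. Changes of 1.5-fold can therefore be missed. Far more genes, 2721, passed at 10 dpf in the data than were changed in the simulation. The adjusted threshold was stricter in the simulation for that reason, so these shares need not hold for the data or for the members.

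Members and lists were chosen with earlier results of these data known. Named were all members, 9 set iron genes, up to 4 called genes per iron list with at least 5 CPM, and the 3 most similar genes per member. Alternatives were RLE and upper quartile scaling, no filter, a filter of 1 CPM in 3 libraries, a replicate block, unstranded counts, DESeq2 1.42.0, voom with sample weights (limma 3.58.1), the compared groups alone and leaving out each of the 12 libraries.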

Additional observations from a re-analysis of the deposited data

How the results depend on the processing

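Of the recomputed values, 1768 kept direction and side of the threshold or stayed close, 26 tested ones changed sign, 42 lost a call, 16 gained one and 30 moved. No member was called at 10 dpf under any alternative. The members called between 10 and 7 dpf in HTO larvae, 0 as reported, were 2 with voom and 0 to 1 with 1 library left out. The iron genes called at 10 dpf, 6 as reported, were 8 with voom, 3 with the compared groups alone, 5 or 6 under the other settings and 3 to 5 with 1 library left out. The members with a log2 difference of exposure effects above 0, 2 as reported, were 1 with voom and 1 to 3 with 1 library left out. Without HTO replicate 1 at 7 dpf, fthl29 stood at 1.03 for exposure at 7 dpf, -1.05 for the difference and -1.57 for age in HTO larvae. The cause was not tested.

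Sign changes of tested values were all in log2 fold changes that did not pass the test. Untested values of members changed sign too. With 1 library left out, those at 7 dpf ranged from -0.16 to 0.18 for fthl30, -0.15 to 0.017 for fth1a and -0.10 to 0.0065 for fthl27. Differences between the exposure effects ranged from -0.13 to 0.032 for fth1a and -0.078 to 0.11 for fth1b. With upper quartile scaling IREB2 at 10 dpf was 0.010 and fthl28 between ages in HTO larvae 0.00034. With voom SLC40A1 at 10 dpf was -0.021 and FLVCR2 between ages in controls -0.021. With 1 library left out, values at 10 dpf ranged from -0.13 to 0.077 for fthl29, -0.99 to 0.01 for tfa, -0.086 to 0.36 for tfr1a and -0.040 to 0.018 for IREB2. Between ages in controls they ranged from -0.17 to 0.11 for ACO1, -0.34 to 0.031 for HMOX1 and -0.054 to 0.12 for FLVCR2. Between ages in HTO larvae they ranged from -0.15 to 0.10 for fthl28, -0.0017 to 0.15 for fthl31, -0.83 to 0.054 for hamp and -0.011 to 0.15 for NFE2L2.

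Over all genes, the 119 calls at 7 dpf were 62 with the replicate block, 66 with the compared groups alone, 447 with voom, 595 with DESeq2 and 12 to 831 with 1 library left out, and the 2721 calls at 10 dpf were 1153 to 3118 with 1 library left out. Same-numbered libraries correlated at -0.20 to 0.22 in their deviations from the group means, so the numbers were not taken as pairs. Between controls at 7 and at 10 dpf, however, r was higher for the same number in each replicate. It was 0.22, 0.043 and 0.18, against at most -0.080, 0.033 and 0.042 for other numbers. The replicate block left 0 members called at 10 dpf and 4 called between ages in controls. Depth limits fthl30 most, with 29 to 104 reads per library.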

Other observations

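Between 10 and 7 dpf, 6 of the 54 iron genes rose and 13 fell in HTO larvae (35.2%, beside 23.2% of all genes), and 7 rose and 10 fell in controls (31.5%, beside 29.3% of all genes, a share near the background). The transferrin receptor genes tfr1a and tfr1b, which take up iron-laden transferrin, fell by 1.51 and 0.94 on the log2 scale in HTO larvae (edgeR, adjusted p = 0.000522 and 0.00231) and by 1.31 and 0.999 in controls (adjusted p = 0.00108 and 0.00118). SLC40A1, the iron exporter ferroportin, fell by 0.44 in HTO larvae (adjusted p = 0.00157) and by 0.37 in controls (adjusted p = 0.00368). IREB2, an iron regulatory protein gene, fell by 0.32 in HTO larvae (adjusted p = 0.00461) and by 0.37 in controls (adjusted p = 0.00137). Cell type markers differed by age too. In HTO larvae 4 of 10 lists did not overlap (all lower at 10 dpf), a share near the 39.6% of all genes taken singly. In controls 9 of 10 lists did not overlap (7 lower, 2 higher), beside 46.1% of all genes. Single markers of these lists did not all pass. The part of these cell types in the changes of the iron genes was not tested.

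BACH1 had a log2 fold change between ages of 0.27 in HTO larvae (adjusted p = 0.119) and rose by 0.76 in controls (adjusted p = 0.000335). HMOX1, a heme oxygenase gene and a known BACH1 target in mammals, fell by 0.87 in HTO larvae (adjusted p = 0.00476) and had a log2 fold change of -0.22 in controls (adjusted p = 0.391). For the ferritin receptor gene ncoa4 the fall was 0.33 in HTO larvae (adjusted p = 0.00520), and the log2 fold change in controls was -0.07 (adjusted p = 0.517). The age change in HTO larvae minus that in controls was -0.49 for BACH1 (edgeR, adjusted p = 0.276), -0.64 for HMOX1 (adjusted p = 0.382) and -0.26 for ncoa4 (adjusted p = 0.364), and none of the 3 passed the test.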
